A study of Mus musculus with 8 samples.

Results

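The estrogen-related receptors (ERRs), the PGC-1 coactivators that they recruit and the transcription factors of mitochondrial biogenesis were followed as 10 genes in newborn mouse cerebral cortex with and without ERRγ. The genes were Esrra, Esrrb, Esrrg, Ppargc1a, Ppargc1b, Pprc1, Gabpa, Gabpb1, Nrf1 and Tfam, and the members were all probes that the platform annotation assigns to one of these symbols. This gave 13 probes of 25697, for 9 of the 10 genes, and 1 gene (Pprc1, which encodes the PGC-1-related coactivator) had no annotated probe, so its expression is not analysed here. The 2 groups were cortex at postnatal day 0 with the genotype ERRγ-/- and wild-type cortex of the same age. RNA of 2 biological samples per genotype was read on Illumina bead arrays, with 2 arrays per sample that are called first and b here, so 8 arrays came from 4 samples. The labels do not say whether a sample was 1 animal or a pool, nor how the allele was made. The spread between these samples may be technical. The variance behind each p-value and SE came more from all genes together than from the samples' values for that gene.

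ERRs are orphan nuclear receptors that bind DNA without a steroid ligand and switch on genes of mitochondrial energy metabolism. They depend on coactivators of the PGC-1 family, and the same coactivators work with NRF1 and with GABP, a complex of a DNA-binding α subunit (Gabpa) and a β subunit (Gabpb1). NRF1 and GABP in turn drive nuclear genes for mitochondria, among them Tfam, whose product packages mitochondrial DNA and acts in its transcription. In the nervous system ERRγ is known from neurons with high energy demand, and the comparison asked what its absence changes in cortex at birth.

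The start regions of Tfam, Gabpa and Gabpb1 are shown because they were the member windows that held letters of the NRF1 or GABP motifs. RefSeq windows (GRCm38.p6) from 250 bases before to 50 bases after a gene's start were matched by symbol, which gave 15 windows for 9 member genes, Pprc1 included, and Ppargc1b was not used here. Both strands were searched for the ERR element TNAAGGTCA, the GABP core CCGGAAG and the NRF1 palindrome, and capitals mark the matches, none of which overlapped another. The windows are Tfam at chr10:71237995-71238294 (minus strand), Gabpa at chr16:84834874-84835173 (plus strand) and the first of 2 for Gabpb1 at chr2:126675543-126675842 (minus strand).
Tfam: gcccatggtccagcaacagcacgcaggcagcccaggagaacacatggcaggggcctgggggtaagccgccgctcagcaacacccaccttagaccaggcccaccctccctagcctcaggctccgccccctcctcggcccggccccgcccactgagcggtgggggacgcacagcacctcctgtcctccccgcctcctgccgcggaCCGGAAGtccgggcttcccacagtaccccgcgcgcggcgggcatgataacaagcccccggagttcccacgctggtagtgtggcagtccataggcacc
Gabpa: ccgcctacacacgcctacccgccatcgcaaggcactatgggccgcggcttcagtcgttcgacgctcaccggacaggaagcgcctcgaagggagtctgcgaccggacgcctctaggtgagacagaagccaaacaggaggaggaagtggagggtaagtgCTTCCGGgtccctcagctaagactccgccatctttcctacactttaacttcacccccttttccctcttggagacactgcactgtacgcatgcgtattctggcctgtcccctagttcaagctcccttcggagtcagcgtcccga
Gabpb1: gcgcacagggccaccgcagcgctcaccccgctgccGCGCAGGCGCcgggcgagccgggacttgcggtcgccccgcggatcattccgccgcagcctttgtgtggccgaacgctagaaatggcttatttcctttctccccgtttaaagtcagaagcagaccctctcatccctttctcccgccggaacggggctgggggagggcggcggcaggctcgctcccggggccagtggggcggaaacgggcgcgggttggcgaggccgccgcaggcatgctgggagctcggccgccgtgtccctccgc
The Tfam window held the GABP letters 47 bases before the start, and the Gabpa window held them on the other strand (CTTCCGG) 93 bases before the start. The Gabpb1 window held the NRF1 letters 215 bases before the start. Over all 32851 windows of this length the GABP letters occurred in 8.86%, the NRF1 letters in 4.60% and the ERR letters in 1.28%. No member window held the ERR letters, including the 4 windows of Esrrg and the window of Esrra. A match of letters is a description of the window, and binding was not measured.

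Of the 13 probes, 8 from 6 genes were above background often enough to be tested (detection p under 0.05 on at least 4 of the 8 arrays). No member differed between the genotypes by the limma test over all genes. The adjusted p of the 6 tested genes ran from 0.377 to 0.990, and 1 of 8098 genes passed in all (0.0123%). The 2 PGC-1 coactivator genes had higher mean signals in ERRγ-/- cortex, Gabpb1 and Nrf1 had lower ones, the probes of Tfam went opposite ways and Esrra lay near 0. By the unadjusted p under 0.05, 2 genes were higher (Ppargc1a and Ppargc1b, against 3.61% of all genes) and 1 lower (Gabpb1, against 3.62%), or 3 of 6 against 7.22%. Samples of the genotypes did not overlap for 4 of the 6 genes, where 35.1% of all genes showed no overlap, 17.7% with ERRγ-/- higher and 17.3% with it lower. Since Ppargc1a was kept mainly through its ERRγ-/- arrays, nothing is read from these counts. The median difference of the 6 genes was -0.04 and that of all genes 0.00, on the log2 scale.

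**Figure D1:**
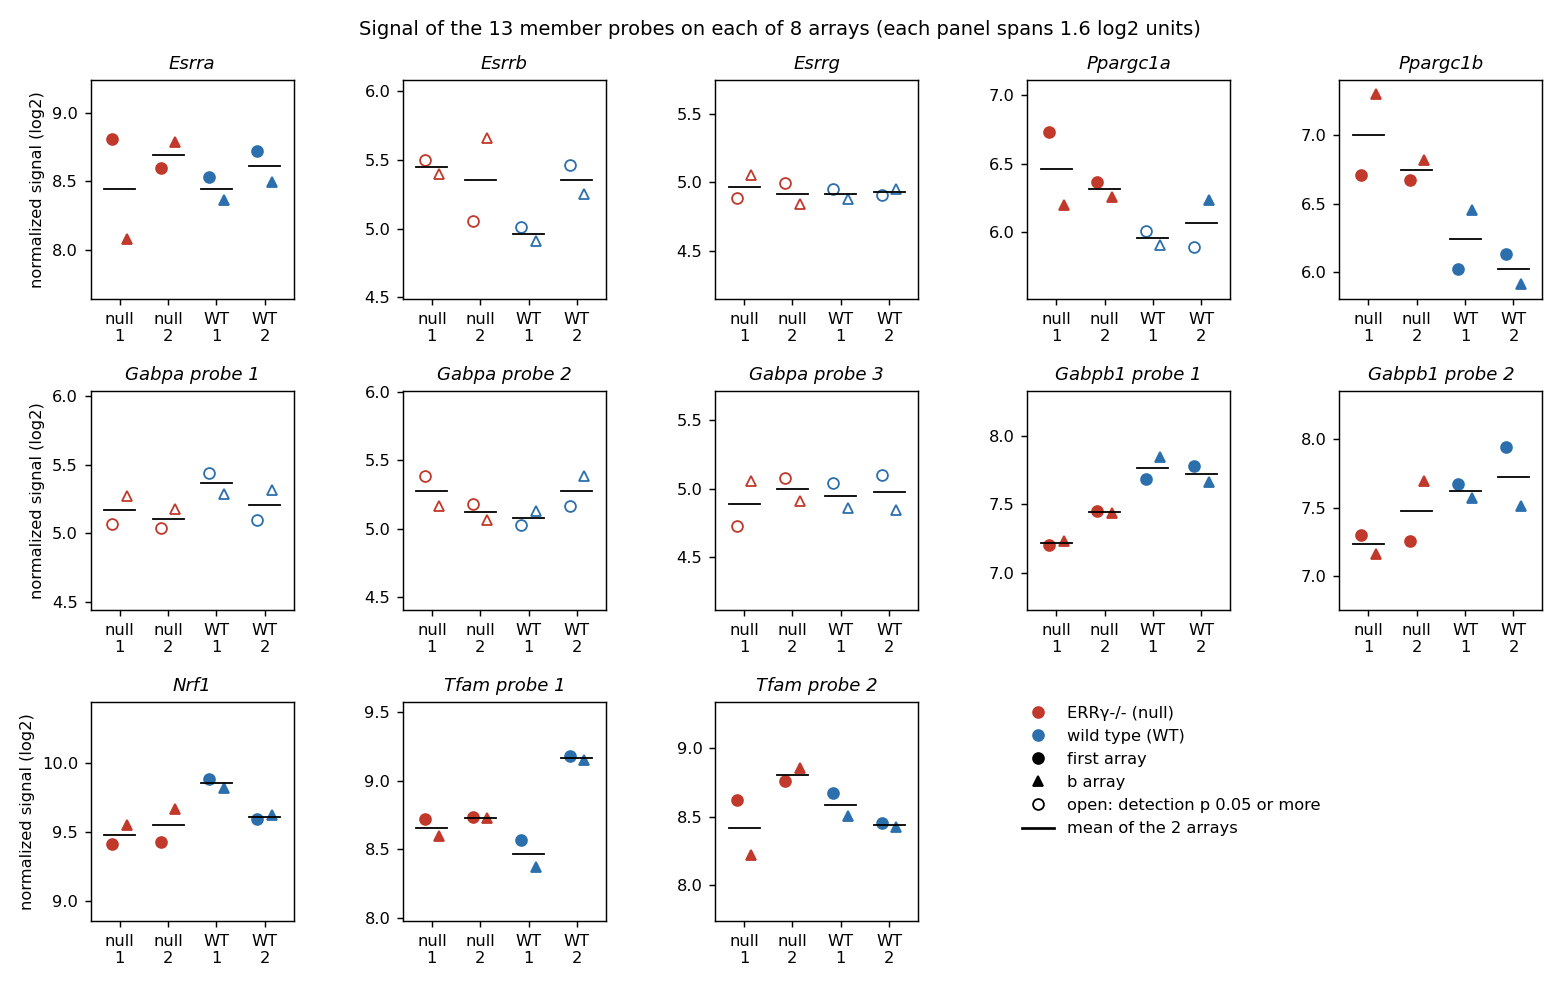
Normalized signal (log2) of the 13 member probes by sample, with the ERRγ-/- samples left of the wild-type samples. Circles are first arrays, triangles b arrays, open symbols are arrays with a detection p of 0.05 or more, and bars are the means of the 2 arrays. All 4 ERRγ-/- arrays lie above all 4 wild-type arrays for Ppargc1b and below them for Gabpb1 probe 1, while the Esrrb, Esrrg and Gabpa probes are open throughout.

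The first array of wild-type sample 1 stood apart from the others. The SD of its log2 differences from its own b array over the 11568 probes kept was 0.354. Between the 2 arrays of each of the other 3 samples it was 0.274 to 0.292. With arrays of other samples the SD was 0.366 to 0.382 for this array, against 0.320 to 0.353 for the other pairs across samples. Mean intensity before normalization was 547 to 639 on the ERRγ-/- arrays and 390 to 565 on the wild-type arrays. Of 8 cortical neuron markers 4 were tested, and Tbr1, Bcl11b and Stmn2 were above background on all arrays, with mean log2 signals of 10.69, 12.33 and 13.95 in ERRγ-/- and 10.78, 12.29 and 13.85 in wild-type cortex. The fourth, Tubb3, was above background on 3 ERRγ-/- arrays and 1 wild-type array and lay at 6.25 and 6.08 in the ERRγ-/- samples against 5.40 and 5.92 in the wild-type samples (difference 0.50, limma adjusted p = 0.519). None of the markers of other cell types passed the test, and some differed in mean level. The 5 tested radial glia and intermediate progenitor markers averaged 8.10 and 8.06 in the ERRγ-/- samples against 8.28 and 8.25 in the wild-type samples. All had a lower mean, as had 4004 of all 8098 genes. Vim (-0.35) and Insm1 (-0.32) did not overlap between the genotypes, while Hes5 (-0.19), Eomes (-0.05) and Sox2 (-0.02) did. The Pax6 probe was above background on 0 arrays. Gpr17, a marker of young oligodendrocyte lineage cells, lay at 6.78 and 6.68 in the ERRγ-/- samples against 6.02 and 6.12 in the wild-type samples, and that list (3 of 5 tested, Olig2 above background on 0 arrays) averaged 9.32 and 9.34 in the ERRγ-/- samples against 9.08 and 9.15 in the wild-type samples. The other tested members of that list, Olig1 and Pdgfra, differed by -0.07 and 0.06. The striatal list (3 of 5 tested) averaged 7.78 and 7.52 in the ERRγ-/- samples against 7.49 and 7.46 in the wild-type samples. Its members did not go together, with differences of 0.48 for Drd1, 0.10 for Ppp1r1b and -0.06 for Drd2. The Drd2 probe was above background on 2 arrays of each genotype. Meningeal and fibroblast markers (2 of 6 tested) averaged 7.87 and 9.24 in the ERRγ-/- samples against 8.27 and 8.09 in the wild-type samples. The part of these differences in the values of the members was not tested, and fewer cells of a type cannot be told apart from less RNA per cell.

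Among the receptors, Esrrg, the targeted gene, was read by 1 probe that was not above background on any array, with detection p from 0.357 to 0.761. Its log2 signal was 4.97 and 4.92 in the ERRγ-/- samples and 4.92 and 4.93 in the wild-type samples, so the genotypes overlapped. The genotype labels could thus not be checked with this probe, whose position in the gene was not known here. A probe at background does not say that a transcript is absent. The probe of Neurod6, a gene known from young cortical projection neurons, was also above background on 0 arrays.

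Esrrb, the family member best known from pluripotent stem cells, was likewise not above background on any array (detection p from 0.0827 to 0.599). Its signals were 5.45 and 5.36 in the ERRγ-/- samples and 4.96 and 5.36 in the wild-type samples, where only wild-type sample 1 stood lower. Both groups were at background, so no difference is given for Esrrb or Esrrg.

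Esrra, which encodes ERRα, the widely expressed member of the family, was above background on all 8 arrays. Its log2 signal was 8.44 and 8.69 in the ERRγ-/- samples and 8.45 and 8.61 in the wild-type samples. Both pairs covered nearly the same range. The difference, ERRγ-/- minus wild type, was 0.04 (SE 0.16, limma adjusted p = 0.990), with a 95% interval from 0.809-fold to 1.30-fold. The 2 arrays of ERRγ-/- sample 1 were 8.80 and 8.08, a gap of 0.73 that was larger than that between any samples. The sign of the difference turned under 3 of 18 alternatives, where it lay between -0.09 and -6.9e-05.

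Both measured coactivator genes had higher signals in both ERRγ-/- samples, without passing the test. Ppargc1b encodes PGC-1β, a coactivator that ERRs recruit. Its probe had unnormalized intensities of 216 and 303 on the arrays of ERRγ-/- sample 1, 208 and 222 on those of ERRγ-/- sample 2, 140 and 175 on those of wild-type sample 1, and 167 and 164 on those of wild-type sample 2. Every ERRγ-/- array was thus above every wild-type array, as was also true after normalization, where 2.75% of all genes tested had such an order. The arrays' median intensities were 147 to 157 in ERRγ-/- and 126 to 149 in wild-type cortex, and the wild-type values of Ppargc1b lay close to background (detection p from 0.0175 to 0.0489).

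Normalized Ppargc1b signals were 7.00 and 6.75 in the ERRγ-/- samples and 6.24 and 6.02 in the wild-type samples. The means were 6.87 ± 0.18 in ERRγ-/- and 6.13 ± 0.15 in wild-type cortex (SD, n = 2 each), a 1.67-fold difference (log2 0.74, SE 0.16, limma adjusted p = 0.377). The 95% interval of the single gene ran from 1.31-fold to 2.13-fold, and its unadjusted p had rank 4 of 8098. In the authors' normalized table the same arrays differed by 0.39, and with no background step by 0.36. Without the dimmest array, the first of wild-type sample 1, the difference was 0.63 (limma adjusted p = 0.509). The adjusted p passed the threshold under 3 of 18 alternatives and ranged up to 0.832 under the others.

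Ppargc1a encodes PGC-1α, the founding coactivator of the family. Its signals were 6.46 and 6.31 in the ERRγ-/- samples and 5.95 and 6.07 in the wild-type samples, so that both ERRγ-/- samples lay higher. The probe was above background on 4 of 4 ERRγ-/- arrays and on 1 of 4 wild-type arrays (detection p 0.0514, 0.0602 and 0.0614 on the other 3). It was kept for the test mainly through the genotype in which it was higher. The log2 difference was 0.38 (SE 0.16, limma adjusted p = 0.620), and no fold is given against a group with 1 array above background. It was 0.60 with the first arrays alone, 0.16 with the b arrays alone and 0.19 in the authors' normalized table, so its size turned on the arrays and the background step.

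**Figure D2:**
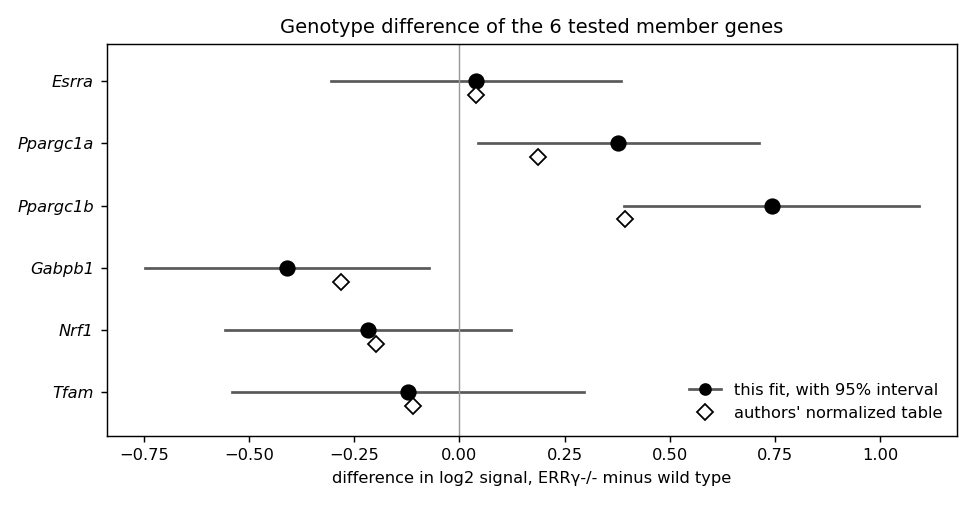
Difference in log2 signal, ERRγ-/- minus wild type, of the 6 member genes tested, with 95% intervals (filled circles), and the same difference in the authors' normalized table (open diamonds). Ppargc1b and Ppargc1a lie above 0 and Gabpb1 below it, and the authors' table gives 0.39 for Ppargc1b against 0.74 here.

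The transcription factors of mitochondrial biogenesis did not pass the test. Gabpb1, the gene for the β subunit of GABP, was read by 2 probes above background on all arrays. Probe 1, the brighter one, lay at 7.22 and 7.44 in the ERRγ-/- samples and at 7.77 and 7.72 in the wild-type samples. After normalization all 4 ERRγ-/- arrays were below all 4 wild-type arrays, an order held by 3.1% of all genes tested. Before normalization they overlapped, with intensities of 261 to 295 on the ERRγ-/- arrays and 231 to 319 on the wild-type arrays. The difference was -0.41 (SE 0.16, limma adjusted p = 0.567), with an interval from 0.596-fold to 0.951-fold. It was -0.26 with no background step. With median scaling, where the median difference of all genes was 0.17, it was -0.23, and -0.40 relative to that median. Probe 2 lay at 7.23 and 7.48 in the ERRγ-/- samples and at 7.62 and 7.73 in the wild-type samples, again without overlap between samples, although its arrays overlapped (7.70 on the b array of ERRγ-/- sample 2, against 7.52 on the lowest wild-type array). Its difference was -0.32 (limma adjusted p = 0.746 over all probes), where 0.00864% of 11568 probes passed and 7.07% had an unadjusted p under 0.05. It was -0.53 with the first arrays, -0.11 with the b arrays and -0.14 with median scaling. Both probes share the gene and the RNA samples and are not replicates of each other.

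Gabpa, the gene for the DNA-binding α subunit of GABP, had 3 probes, and none was above background on any array (detection p from 0.152 to 0.947). Sample signals of the 3 probes lay between 4.89 and 5.28 in ERRγ-/- and between 4.95 and 5.36 in wild-type cortex. These values are at background, and no difference is given for Gabpa.

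Nrf1 encodes nuclear respiratory factor 1, a regulator of genes for respiratory subunits and for the mitochondrial transcription machinery. Its log2 signal was 9.48 and 9.55 in the ERRγ-/- samples and 9.85 and 9.61 in the wild-type samples. Both ERRγ-/- samples were lower than both wild-type samples. The difference was -0.22 (SE 0.16, limma adjusted p = 0.850) and was no larger than the gap of 0.24 between the wild-type samples. It was -0.03 with median scaling, where the median difference of all genes was 0.17, and -0.20 relative to that median. Without wild-type sample 1 the difference was -0.10, and without wild-type sample 2 it was -0.34.

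Tfam, the gene for mitochondrial transcription factor A, had 2 probes above background on all arrays that did not give the same picture. Probe 1 lay at 8.66 and 8.73 in the ERRγ-/- samples and at 8.47 and 9.17 in the wild-type samples. The wild-type samples thus differed by 0.69, at or above the gap of 98.9% of all genes tested, and both arrays of each sample agreed on it within 0.20. Probe 2 lay at 8.42 and 8.81 in the ERRγ-/- samples and at 8.59 and 8.44 in the wild-type samples, where wild-type sample 2 was the lower of that pair. The genotype difference was -0.12 for probe 1 (SE 0.20, limma adjusted p = 0.964) and 0.10 for probe 2 (limma adjusted p = 0.966 over all probes). Without wild-type sample 2 the difference of probe 1 turned to 0.22, and without wild-type sample 1 it was -0.47.

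**Figure D3:**
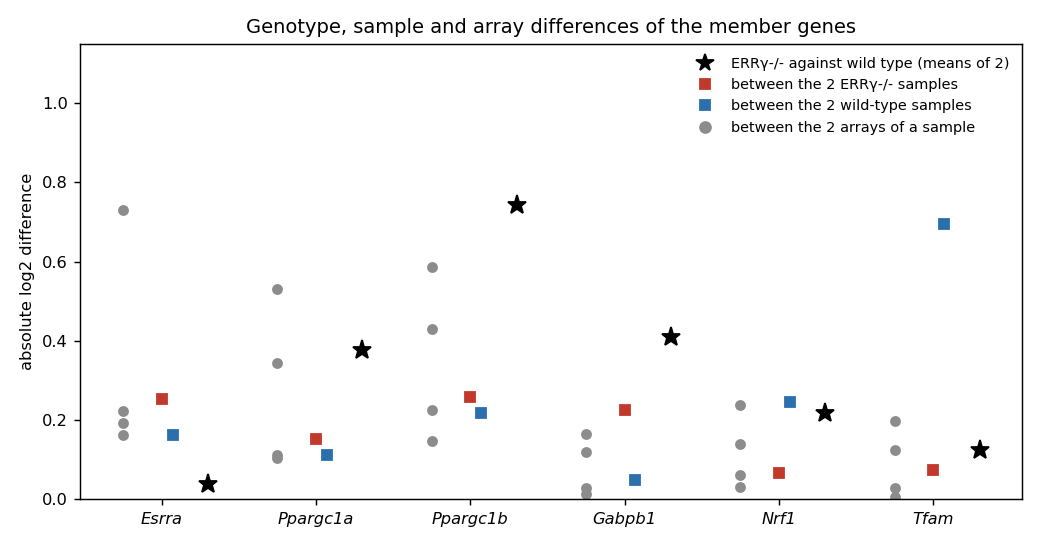
Absolute log2 differences of the 6 member genes tested between the genotypes (stars), between the 2 ERRγ-/- samples (red squares), between the 2 wild-type samples (blue squares) and between the 2 arrays of each sample (grey circles). For Ppargc1b, Ppargc1a and Gabpb1 the genotype difference exceeds both sample differences, for Esrra and Nrf1 it does not, and for Tfam the wild-type samples differ by 0.69.

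The members also differed in how closely arrays of 1 sample agreed. The median array difference was 0.33 for Ppargc1b, 0.23 for Ppargc1a and 0.21 for Esrra, against 0.18 over all genes tested. It was 0.07 for Gabpb1, 0.08 for Tfam and 0.10 for Nrf1. The SD over the 4 samples, which includes the genotype difference, was 0.45 for Ppargc1b, at or above that of 99.5% of genes tested. Its ERRγ-/- samples differed by 0.26 and its wild-type samples by 0.22, at or above 70.5% and 65.2% of genes. For Tfam the SD over the 4 samples was 0.29 (92.8% of genes), for Gabpb1 0.25 (86.3%), for Ppargc1a 0.23 (81.2%), for Nrf1 0.16 (55.4%) and for Esrra 0.12 (34.7%).

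**Figure D4:**
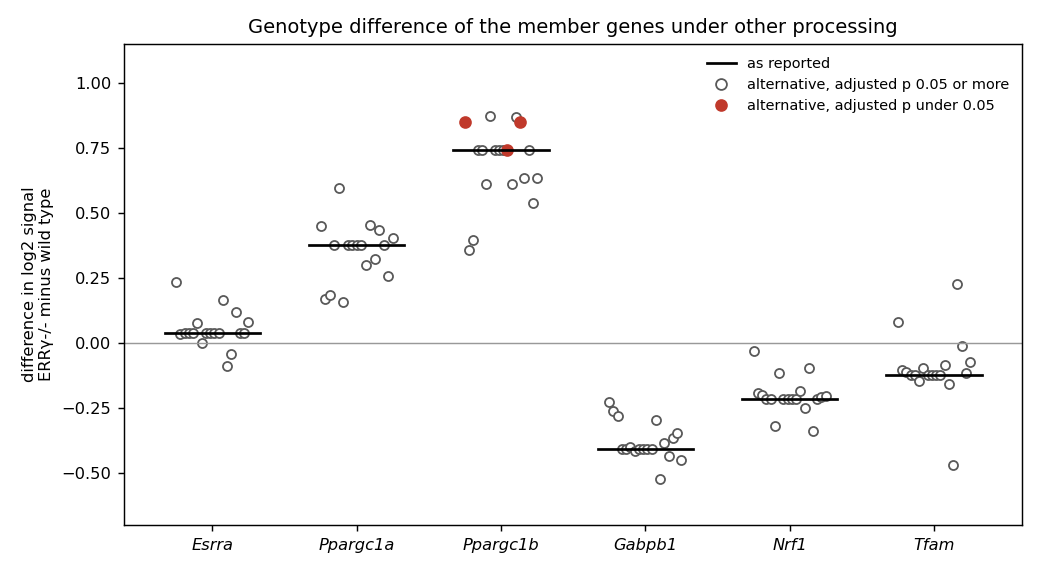
Difference in log2 signal, ERRγ-/- minus wild type, of the 6 member genes tested under other processing, where each circle is 1 alternative and the bar is the value reported. Filled circles have an adjusted p under 0.05, which occurs for Ppargc1b in 3 of 18 alternatives and for no other member, and the circles of Esrra and Tfam fall on both sides of 0.

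Genes with the most similar course over the 4 samples were found by the root-mean-square (RMS) difference of mean-centred log2 values, for the 5 members that varied more than the median gene. The course of Ppargc1b was most like that of Tulp3 (RMS 0.07) and Cox7b (RMS 0.08), and 4 genes lay within 0.1. Cox7b, which encodes a subunit of cytochrome c oxidase, lay at 6.37 and 6.22 in the ERRγ-/- samples and at 5.78 and 5.60 in the wild-type samples. Tulp3 lay at 6.48 and 6.32 in the ERRγ-/- samples and at 5.92 and 5.60 in the wild-type samples. The wild-type values of both genes were lower than the wild-type mean of Ppargc1a (6.01), which was itself near background. The size of their differences is therefore not read. Ppargc1a was most like Snd1 and Ckap5 (RMS 0.02 each), with 298 genes within 0.1. Gabpb1 was most like Rab6b (RMS 0.01) and Itgad (RMS 0.02), with 235 genes within 0.1. Nrf1 was most like Unc119b and Cenpp among 812 genes within 0.1, and Tfam probe 1 most like Lipo3 and Pus10 among 66. With 4 samples, many genes share a course, so these names are descriptions only.

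Genes that act with, above or below the members were taken as 4 lists, and no listed gene passed the test in either direction. Coregulators and partners of ERRs and PGC-1 (10 of 18 genes tested) had a median difference of -0.07, with 2 higher and 8 lower. Sirt1, the deacetylase that acts on PGC-1α, lay at 7.85 and 8.10 in the ERRγ-/- samples and at 8.34 in both wild-type samples (difference -0.36, limma adjusted p = 0.641). The acetyltransferase gene Ep300 differed by -0.31 and the deacetylase gene Hdac3 by -0.29. The corepressor gene Nrip1 and the second β subunit gene of GABP, Gabpb2, were above background on 0 arrays.

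Upstream regulators of PGC-1 (13 of 19 tested) had a median of 0.05, with 8 higher and 5 lower. Prkab1, which encodes a regulatory subunit of the energy sensor AMPK, lay at 9.82 and 9.65 in the ERRγ-/- samples and at 9.12 and 9.37 in the wild-type samples (difference 0.49, limma adjusted p = 0.501). The transcription factor genes Atf2 and Foxo1 differed by -0.29 and -0.24. The AMPK subunit gene Prkag1 differed by -0.02 and the catalytic subunit gene Prkaa2 by 0.20, against SEs of 0.16 and 0.18.

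Genes for maintenance and transcription of mitochondrial DNA, the processes in which Tfam acts, had a median of -0.07 (19 of 22 tested, 7 higher and 12 lower). The 3 with the smallest p were Top1mt, the mitochondrial topoisomerase gene (-0.27), Twnk, the replicative helicase gene (-0.23), and Rnaseh1, a ribonuclease H gene (-0.19), with limma adjusted p from 0.772 to 0.889. Mterf1a and Mterf1b are close copies, and how far their probes separate them was not tested.

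Known target genes of ERRs and PGC-1 (14 of 19 tested) had a median of 0.14, with 9 higher and 5 lower. The list's mean log2 signal was 10.08 and 10.07 in the ERRγ-/- samples and 9.99 and 10.04 in the wild-type samples. Cpt1b, which encodes the carnitine palmitoyltransferase of muscle mitochondria, lay at 6.90 and 6.98 in the ERRγ-/- samples and at 7.20 and 7.44 in the wild-type samples (difference -0.38, limma adjusted p = 0.620). The mitochondrial fusion gene Mfn2 and Etfdh, whose product passes electrons from fatty acid oxidation to ubiquinone, each differed by 0.23. Pdk4, a kinase gene that restrains pyruvate dehydrogenase, was above background on 0 arrays.

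**Figure D5:**
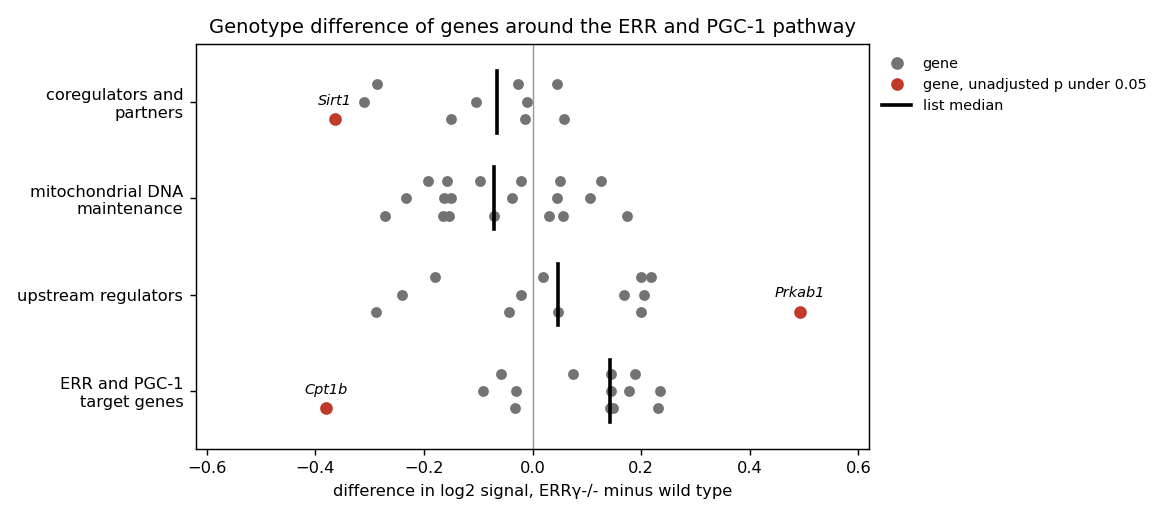
Difference in log2 signal, ERRγ-/- minus wild type, of the tested genes of 4 lists around the ERR and PGC-1 pathway, with 1 point a gene and a bar at each list's median. The medians lie between -0.07 and 0.14. Red points (Sirt1, Prkab1 and Cpt1b) have an unadjusted p under 0.05, as do 7.22% of all genes tested. They are 1 of 10 coregulators, 1 of 13 upstream regulators and 1 of 14 targets, with 0 of 19 mitochondrial DNA genes.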

How the data were processed

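The authors deposited 1 mean bead intensity per probe and array, linear and not normalized, with a detection p-value against background, per the file headers. The submitters' processing notes name GenomeStudio without settings. Their second deposited table holds intensities of the same arrays brought to a common distribution (column medians 142.5 to 142.7, rank correlation 1 with the first table), with the method unstated, and was used on the log2 scale as an alternative.

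In R 4.3.3 with limma 3.58.1, neqc corrected the background through the detection p-values, added an offset of 16, quantile-normalized and took log2. The filter kept 11568 of 25697 probes. A gene was its brightest kept probe (8098 genes), and the 2 arrays of a sample were averaged, so n is 2 per genotype. The test was limma's lmFit and eBayes, two-sided and adjusted by Benjamini-Hochberg over all genes at 0.05. Only the limma fit was tested on simulated data, with log2 sample values drawn under its own model, and the steps before it were not. The members and lists were chosen with earlier results of these data known. All members are named, and from each list the genes past the threshold or the 3 with the smallest p. Other genes were named after their values were seen. Coordinates are those of the RefSeq windows only, since the files name no genome build.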

Additional observations from a re-analysis of the deposited data

How the results depend on the processing

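Of 18 refitted alternatives, Ppargc1b kept its direction in 18, Gabpb1 and Nrf1 in 18 (Nrf1 only at -0.030 with median scaling) and Ppargc1a in 17 of 17 (its probe was not kept when detection on all 8 arrays was required). Ppargc1b passed with median scaling (0.85, limma adjusted p = 0.0377), with the replicate number as a block (0.74, limma adjusted p = 0.0407) and without wild-type sample 1 (0.85, limma adjusted p = 0.0445). In the last 2 fits the prior degrees of freedom were infinite. Leaving out 1 sample gave Ppargc1b differences from 0.61 to 0.87, Esrra from -0.087 to 0.16, Gabpb1 from -0.52 to -0.30, Nrf1 from -0.34 to -0.095 and Tfam from -0.47 to 0.22. Tfam probe 2 ranged from -0.092 to 0.29. Esrra was -6.9e-05 with the b arrays alone, and Tfam 0.079 with median scaling, where the median difference of all genes was 0.17. That setting did not move all genes alike, since Esrra went from 0.04 to 0.24 and Ppargc1a from 0.38 to 0.45. Relative to the median of all genes Tfam was -0.10, Nrf1 -0.20, Gabpb1 -0.40, Esrra 0.06, Ppargc1a 0.27 and Ppargc1b 0.68.

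The count of genes past the threshold was 20 with median scaling (19 of them higher), 12 with the replicate block and from 0 to 22 with 1 sample left out. It was 0 without the filter, with detection required on all 8 arrays, with either set of arrays alone, with robust variance and with the mean of all probes, against 1 as reported. The cause was not tested. The replicate numbers do not pair the samples as far as the labels or data show, since the difference between samples 1 and 2 had a correlation across genes of 0.01 between the genotypes. Bead chip as a block was not run, because the headers give no chip.

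List medians moved more than the samples' spread as follows. With median scaling they were 0.056 for coregulators, 0.10 for mitochondrial DNA genes, 0.24 for upstream regulators and 0.30 for targets. The median of all genes was itself 0.17 in that setting, so these values include a general shift, which was not of the same size for every gene. With the first arrays they were -0.10, 0.079, 0.18 and 0.12 in that order, and with the b arrays -0.11 for coregulators, -0.13 for mitochondrial DNA genes and 0.035 for targets. Targets were 0.10 with no background step, 0.11 in the authors' table and 0.081 when the dimmest array was left out, a setting chosen after seeing the data. Coregulators were -0.11 with detection on all arrays, and upstream regulators 0.019 with the mean of all probes. Leaving out 1 sample gave ranges from -0.157 to -0.062 for coregulators, -0.13 to -0.020 for mitochondrial DNA genes, -0.039 to 0.077 for upstream regulators and 0.083 to 0.17 for targets.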
